A study of Homo sapiens with 24 samples.

Results

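The spliceosome core snRNP protein genes were taken as every protein-coding gene of GENCODE 29 whose symbol begins with SNRP, SF3A, SF3B, LSM or PRPF. Of the 49 such genes, 47 were among the 12285 genes of the expression table, and SNRPN and LSMEM2 were not. All 47 had a mean over the series of 1 FPKM or more (a read level corrected for transcript length and library size). The rule reads symbols and no measured value, though it was set with earlier results of these data known. It also takes genes that encode no snRNP protein. Among them are LSMEM1, which encodes a leucine-rich membrane protein, and LSM14A, which encodes a protein of cytoplasmic mRNA granules. LSM12 and LSM14B were grouped with these as other LSM genes.

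The cells were K562, an established human leukaemia line with erythroid features, grown in RPMI with bovine calf serum and P/S, and no agent was added. Synchronous cells were obtained by centrifugal elutriation, which separates cells by size, and total RNA was extracted with acid phenol and sequenced every 2 h from 0 h to 46 h. Each of the 24 time points is 1 library, so there is no replicate of any hour, and scatter between neighbouring time points stands in for replicate error throughout. The study examined how time points whose transcript levels depart from those of their neighbours, which it calls STRIPEs, affect the analysis of periodic genes. In this series it names 16 h and 18 h as STRIPEs, with some genes raised and others lowered, and by eye a milder one at 32 h. The paper proposes that STRIPEs are technical and do not reflect the biology of the cells, though their source remained unknown. That origin was not tested with these genes.

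Small nuclear ribonucleoproteins (snRNPs) are particles of a short RNA and a set of proteins that recognize the ends of introns and build the catalytic core of the spliceosome. The U1, U2, U4 and U5 RNAs are each held in a ring of Sm proteins, and the U6 RNA in a ring of related LSM proteins. U1 marks the start of an intron and U2 its branch point, and the U4/U6.U5 tri-snRNP then joins and is rearranged into the active enzyme. Proliferating cells transcribe most of these genes at high levels.

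Summed FPKM lay between 456791 and 520382 at 22 time points and was 566247 at 16 h and 591309 at 18 h. These 2 libraries, which the study names as STRIPEs, thus also stood apart on this sum, and results are given with and without them. The depth of the libraries is unknown, since only FPKM was analysed here. All 12 erythroid markers examined were in the table, with HBG2 at a mean of 2225 FPKM, against 2 of 6 lymphoid markers (CD3D at 7.05 FPKM) and 1 of 5 monocyte markers (LYZ at 19.6 FPKM). In these bulk samples, fewer cells with a transcript and less of it per cell cannot be told apart.

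The snRNP protein genes were abundant, and outside 16 h and 18 h their median variation was somewhat below that of all genes. Over the other 22 time points the median gene had a mean of 92.4 FPKM, against 13.6 FPKM for the 12253 genes that passed this minimum, and 42 of the 47 lay above the all-gene median. A total of 21 exceeded 100 FPKM. The median coefficient of variation was 11.7%, against 14.2% for all genes, and 17 of the 47 varied by less than 10%. The largest values were 29.2% for LSMEM1 and 21.1% for SF3A3. The share of all genes below 10% was not computed, and the comparison with all genes was not matched for level. Together the 47 genes made up 1.01% to 1.12% of summed FPKM at the 22 time points, 1.11% at 16 h and 1.14% at 18 h.

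The 7 Sm genes in the table encode the ring that encloses the U1, U2, U4 and U5 RNAs, in which each protein occupies 1 place. Per length their means were unequal and ran from 92.4 FPKM to 498 FPKM. SNRPD2 was highest of all 47, with 391 FPKM at its lowest (32 h), a median of 507 FPKM and 627 FPKM at its highest (30 h). SNRPD1 followed among the Sm genes at 221 FPKM (46 h), 264 FPKM and 326 FPKM (32 h), and SNRPB, which encodes SmB/B', at 109 FPKM (32 h), 188 FPKM and 215 FPKM (2 h). SNRPD2 overlapped with no other Sm gene over these 22 time points, and SNRPD1, the next, lay wholly above SNRPB and the rest. SNRPG lay between 117 and 157 FPKM with a median of 143 FPKM, and SNRPD3 between 121 and 170 FPKM with a median of 134 FPKM. SNRPF ranged from 87.9 to 164 FPKM around a median of 123 FPKM, and SNRPE from 67.6 to 108 FPKM around 92.7 FPKM. SNRPE lay wholly below SNRPB, SNRPG and SNRPD3, and its range met that of SNRPF.

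Of the 5 genes for U1 proteins and U1-associated factors, SNRPC (U1-C, which steadies the pairing of U1 with the intron start) had the highest level, with a lowest value of 285 FPKM, a median of 301 FPKM and a highest value of 444 FPKM at 32 h. SNRPA (U1-A, which binds a stem loop of U1 RNA) lay between 99.2 and 160 FPKM. PRPF39 ranged from 17.1 to 31.1 FPKM and PRPF40B from 2.30 to 5.16 FPKM, so that these U1-associated factors lay wholly below SNRPA and SNRPC.

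The 11 genes for U2 proteins ranged from a mean of 56.4 FPKM to 305 FPKM. SF3B3, a scaffold of the SF3B complex, was highest with 236 FPKM (2 h), a median of 294 FPKM and 385 FPKM (10 h). SF3A3 of the SF3A complex ranged from 142 to 309 FPKM, with its highest value at 32 h and a coefficient of variation of 21.1%, the largest of the U2 group. SF3B6, which encodes the protein in contact with the branch-point adenosine, was the steadiest of all 47 genes, between 132 and 156 FPKM with a coefficient of variation of 4.68%. SF3B1, the largest SF3B subunit and a frequent target of mutation in blood cancers, lay between 113 and 156 FPKM.

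LSM2 to LSM8 encode the ring that holds U6 RNA in the nucleus, and LSM1 replaces LSM8 in a cytoplasmic ring that takes part in mRNA decay. LSM5 ranged from 134 FPKM (32 h) to 195 FPKM (10 h) with a median of 175 FPKM, LSM2 from 134 FPKM (22 h) to 242 FPKM (10 h) with a median of 165 FPKM, and LSM4 from 136 FPKM (22 h) to 178 FPKM (10 h) with a median of 164 FPKM. LSM7 ranged from 82.8 FPKM (32 h) to 186 FPKM (30 h) around a median of 130 FPKM. LSM8, which defines the nuclear ring, lay between 76.1 FPKM (42 h) and 150 FPKM (32 h) with a median of 89.7 FPKM, above LSM1, which lay between 47.2 FPKM (46 h) and 72.1 FPKM (6 h) with a median of 61.8 FPKM. The ranges of LSM1 and LSM8 did not overlap. LSM6 ranged from 47.4 FPKM (44 h) to 97.9 FPKM (6 h) around 65.0 FPKM, and LSM3 was lowest of the 8, between 33.7 FPKM (0 h) and 51.0 FPKM (30 h) around 38.0 FPKM.

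LSM10 and LSM11 replace a pair of Sm proteins in the U7 snRNP, which processes the ends of histone mRNAs. LSM10 lay between 35.3 and 56.8 FPKM and LSM11 between 3.40 and 7.66 FPKM, so that these partners of 1 ring differed several-fold per length. LSM14A, a protein of cytoplasmic mRNA granules, had a mean of 97.4 FPKM, and the other 3 genes that carry an LSM symbol, LSM14B, LSM12 and LSMEM1, had means of 26.4, 7.26 and 1.58 FPKM.

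The 5 tri-snRNP genes had means of 33.7 to 120 FPKM. PRPF8, the U5 protein at the catalytic centre, was highest, between 92.9 FPKM (32 h) and 163 FPKM (12 h), and PRPF31, PRPF6, PRPF3 and PRPF4 had medians of 63.8, 36.2, 33.5 and 33.7 FPKM. Among the remaining PRPF genes, PRPF19, a ubiquitin ligase that gives its name to a spliceosome complex, lay between 111 and 165 FPKM, and PRPF18, a factor of the second splicing step, between 10.1 and 14.8 FPKM. PRPF38A, a protein of the pre-catalytic complex, its relative PRPF38B and the kinase gene PRPF4B had medians of 79.5, 73.4 and 71.9 FPKM. Over the 22 time points 13 of the 47 genes were lowest at the last one, 46 h, against 10.8% of all genes.

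**Figure D1:**
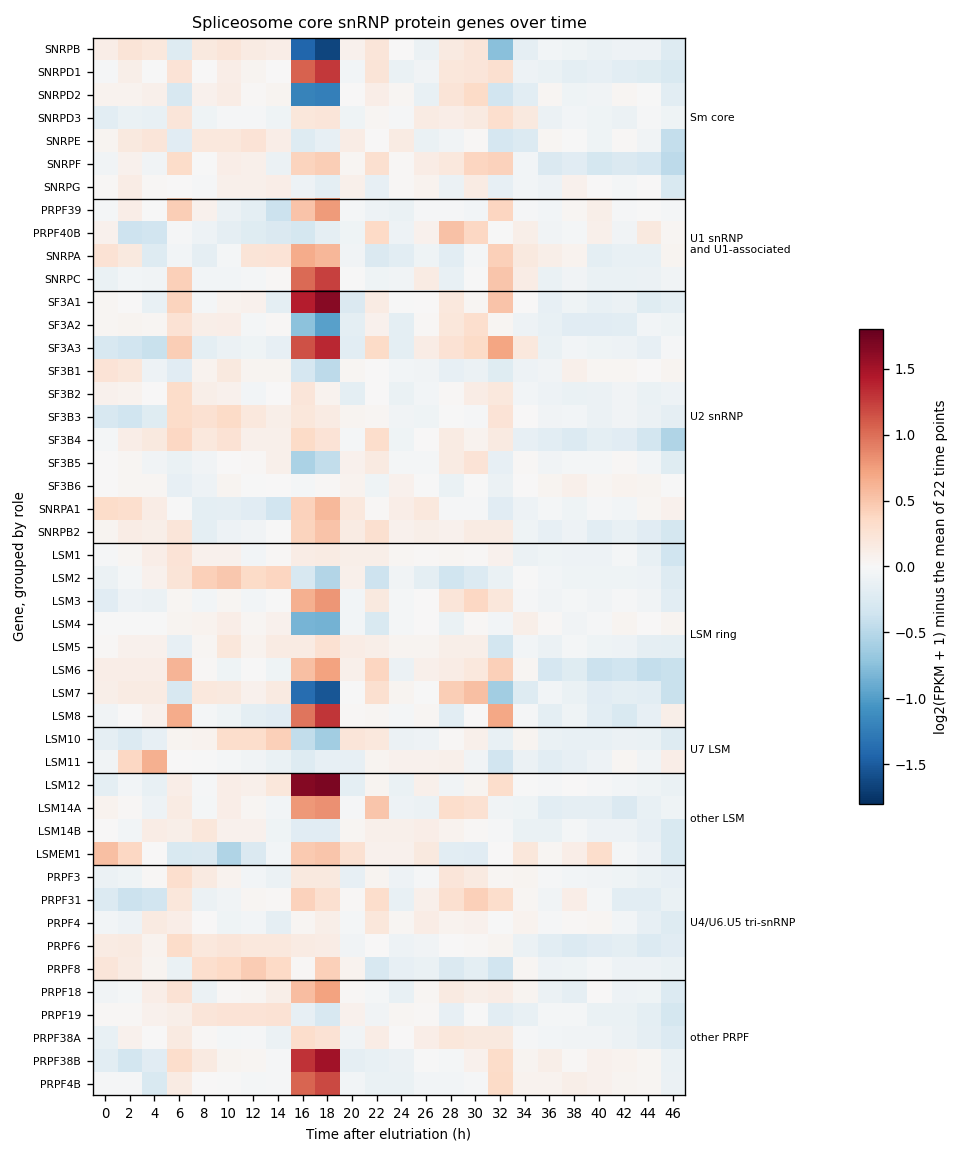
Level of 46 of the 47 genes (rows, grouped by role) at each hour after elutriation (columns), as log2(FPKM + 1) minus the gene's own mean, which was taken without 16 h and 18 h. The columns at 16 h and 18 h hold the strongest colours of both signs, with SNRPB, SNRPD2 and LSM7 in dark blue and SF3A1, LSM12 and PRPF38B in dark red.

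To see how far 16 h and 18 h lay from their neighbours, a line was drawn from 14 h to 20 h on log2(FPKM + 1), and the distance of each from it was averaged over both. On this scale a distance of 1 is 2-fold. With 1 library a time point there is no test, and the same measure at 16 other consecutive pairs of time points served as the reference. At 16 h and 18 h, 9 of the 47 genes lay at least 2-fold above the line and 3 at least 2-fold below it. Of all genes, 8.95% lay at least 2-fold above and 7.11% at least 2-fold below. None of the 47 reached 2-fold at any of the 16 reference pairs, where single distances ran from -0.67 to 0.80. Few genes of any kind did. Of all 12253, at most 99 lay 2-fold above (28 h and 30 h) and at most 79 below (32 h and 34 h) at such a pair.

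The genes furthest above the line came from several of the role groups. SF3A1, a subunit of the U2 complex SF3A, was at 75.2 FPKM at 14 h, 228 FPKM at 16 h, 268 FPKM at 18 h and 71.0 FPKM at 20 h, a distance of 1.75 (3.35-fold). LSM12 stood at 8.45, 25, 25.7 and 6.32 FPKM at the same hours, a distance of 1.66 (3.17-fold), and PRPF38B at 70.7, 180, 208 and 64.0 FPKM, a distance of 1.51 (2.84-fold). For these 3 genes both libraries exceeded every other time point. SF3A3 had 170 FPKM at 14 h, 419 FPKM at 16 h, 481 FPKM at 18 h and 164 FPKM at 20 h (1.42). LSM8 (1.21), SNRPD1 (1.19), PRPF4B (1.15) and SNRPC (1.11) were also at least 2-fold above.

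The genes furthest below the line were SNRPB, LSM7 and SNRPD2. SNRPB had 199 FPKM at 14 h, 67.1 FPKM at 16 h, 57.6 FPKM at 18 h and 192.5 FPKM at 20 h, a distance of -1.64, or 0.321 of the line. LSM7 had 144, 48.7, 43.5 and 127 FPKM at those hours, a distance of -1.53 (0.345 of the line), and SNRPD2 had 512, 214, 211 and 498 FPKM, a distance of -1.24 (0.422 of the line). In each of these 3 genes both libraries were below all other 22. LSM4 and LSM10, both at -0.86, came next and did not reach 2-fold.

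Both libraries lay above the other 22 in 17 of the 47 genes and below them in 8, against 30.9% and 19.7% of all genes. The distance at 16 h and 18 h was outside the gene's own range over the reference pairs in 25 genes above and 13 below, against 43.6% and 28.0% of all genes. The sign was the same at 16 h as at 18 h in 46 of the 47, the exception being PRPF8, with -0.23 at 16 h and 0.27 at 18 h. The share of all genes with the same sign at both was not computed. The median distance over the 47 was 0.26, with 31 above 0 and 16 below. Over all genes it was 0.14, with 58.1% above 0.

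That median depended on how the libraries were scaled. With every library brought to a common median it was 0.14 over the 47 and 0.03 over all genes, and with upper-quartile scaling 0.03 and -0.06. The counts above and below 0 became 26 and 21, and 24 and 23, and the matching shares of all genes were not computed. The split of the genes past 2-fold moved as well. With upper-quartile scaling 5 of the 47 were above and 6 below, and of all genes past 2-fold 30.8% were above, against 55.7% without it.

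**Figure D2:**
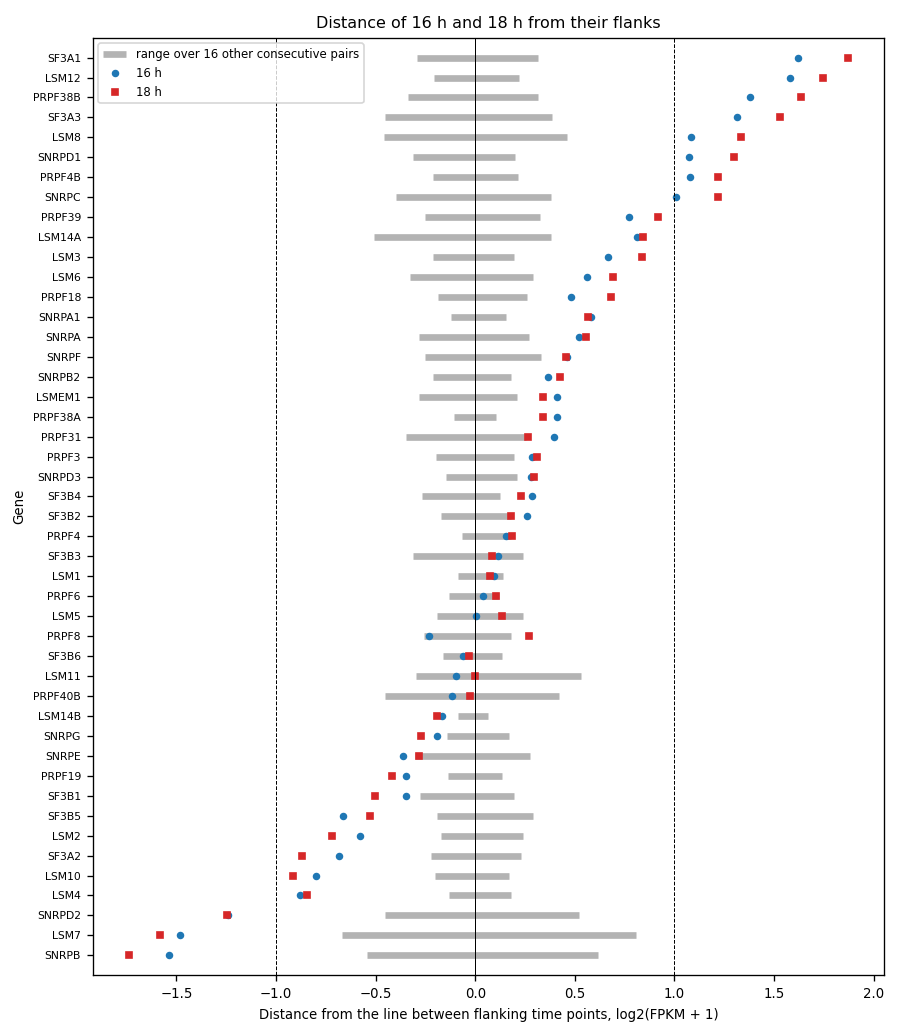
Distance of 16 h (circles) and 18 h (squares) from the 14 h to 20 h line for 46 of the 47 genes, on log2(FPKM + 1), sorted by the mean of both. Grey bars give the range of the same measure over 16 other consecutive pairs and dashed lines mark 2-fold; 11 genes shown have a mean distance beyond the dashed lines, and no grey bar reaches them.

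Genes of the same ring or complex lay on opposite sides at these 2 time points. Of all genes 58.1% lay above the line, and how often other small sets of genes split was not computed. The ratios given here are of genes on opposite sides. In the Sm ring SNRPD1 stood at 557 and 643 FPKM at 16 h and 18 h, above all other time points, while SNRPB and SNRPD2 stood below all of theirs. The ratio of SNRPD1 to SNRPB was 8.30 at 16 h and 11.2 at 18 h, and between 1.26 and 3.0 at the other 22, where it was highest at 32 h. SNRPD1 over SNRPD2 was 2.60 and 3.05, against 0.458 to 0.833 elsewhere. SNRPF (0.46) and SNRPD3 (0.29) were on the upper side and SNRPE (-0.32) and SNRPG (-0.23) on the lower, so that 3 Sm genes were above the line and 4 below it.

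The SF3A complex, which has 3 subunits, showed the same kind of split. SF3A2 was at 80.1 FPKM at 14 h, 47.3 FPKM at 16 h, 39.6 FPKM at 18 h and 70.0 FPKM at 20 h (-0.78), whereas SF3A1 and SF3A3 were among the 5 genes furthest above. The ratio of SF3A3 to SF3A2 was 8.86 and 12.1 at 16 h and 18 h and between 1.74 and 3.82 at the other time points. Within the SF3B complex distances were smaller, from -0.60 for SF3B5 and -0.43 for SF3B1 to 0.26 for SF3B4.

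In the LSM ring LSM8 (79.7, 179, 225 and 93.4 FPKM from 14 h to 20 h) was on the upper side and LSM7 on the lower. The ratio of LSM8 to LSM7 was 3.68 and 5.17, against 0.464 to 1.81 at the other 22 time points. LSM3 (0.75) and LSM6 (0.63) were also above, LSM2 (-0.65) and LSM4 (-0.86) below, and LSM1 (0.08) and LSM5 (0.07) within their reference ranges. Among the U1 genes PRPF39 (0.84) and SNRPA (0.54) were above the line and PRPF40B (-0.07) was near it. The 5 tri-snRNP genes all lay between 0.02 and 0.33.

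**Figure D3:**
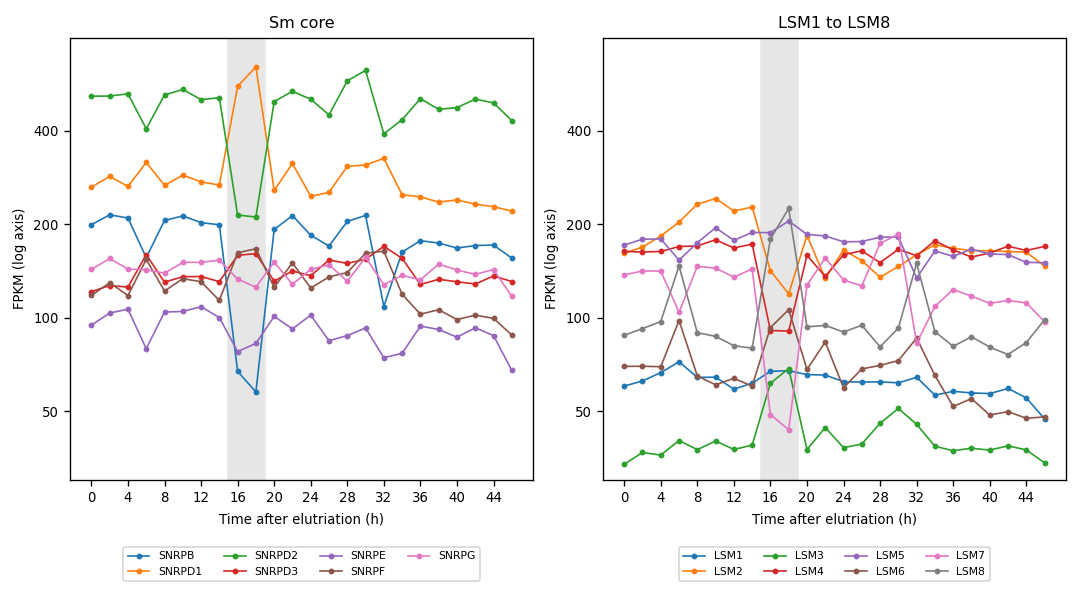
FPKM on a log axis of the 7 Sm genes (left) and LSM1 to LSM8 (right) at each hour after elutriation, with 16 h and 18 h shaded. In the shaded hours SNRPD1 crosses above SNRPD2 and LSM8 above LSM7, and at 20 h both pairs are back in their former order.

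The distance varied with the base composition of the transcript. Across the 47 genes, which share the same libraries, Spearman's rho between GC content and distance was -0.52 (all genes -0.56, 12148 with a GC value), and between transcript length and distance 0.47 (all genes 0.32). The 19 genes under 45% GC had a median distance of 0.46, with 14 above 0, and the 14 genes at 55% or more a median of -0.28, with 5 above 0. Medians of all genes in the same classes were 0.48 and -0.45. After a smooth GC trend of all genes was subtracted, 5 of the 47 remained at least 2-fold above and 3 below, and SF3A1 still stood at 1.70, LSM12 at 1.35 and SNRPB at -1.33. SF3A2, with 66.6% GC, moved from -0.78 to 0.04 and SNRPE, with 39.0% GC, from -0.32 to -0.86. The part that GC content has in these distances was not tested.

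**Figure D4:**
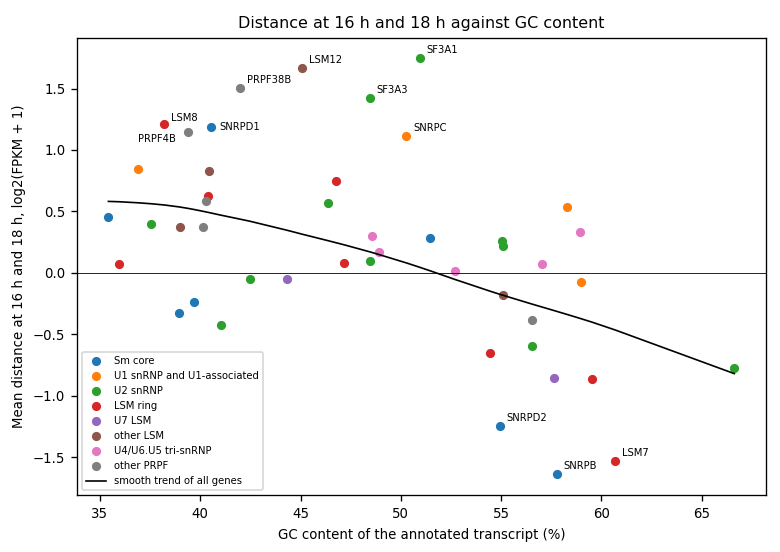
Mean distance at 16 h and 18 h on log2(FPKM + 1) against the GC content of the annotated transcript for 46 of the 47 genes, coloured by role, with the smooth trend of all genes as a black line. The genes shown that are at least 2-fold off are named; SF3A1, LSM12 and SF3A3 lie above the trend and SNRPB, LSM7 and SNRPD2 below it.

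Smaller distances with the same signs were present at 6 h and 32 h, measured there from the mean of the 2 neighbours. By eye the study marks 32 h, but not 6 h, as a mild STRIPE. Of the 12 genes at least 2-fold off at 16 h and 18 h, 11 had the same sign at 6 h and 12 at 32 h, against 84.4% and 91.1% of all genes that far off. SNRPB was at -0.41 at 6 h and -0.77 at 32 h, LSM7 at -0.46 and -0.77, LSM8 at 0.65 and 0.71 and SF3A3 at 0.74 and 0.45. Across the 47 genes Spearman's rho of the distance at 16 h and 18 h was 0.71 with that at 6 h and 0.78 with that at 32 h (all genes 0.41 and 0.58). At 6 h 2 of the 47 were at least 1.5-fold off and at 32 h 3, shares near those of all genes (4.31% and 6.77%).

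Order in time was ranked on FPKM with a JTK statistic computed here at a fixed period of 24 h. The study used JTK_CYCLE, beside other algorithms, and took its top-ranked genes, so the calls are not those of the study. The p of the statistic used here is a permutation p from 100000 random orderings, adjusted by Benjamini–Hochberg over 12253 genes. At an adjusted p of at most 0.05 it called 4 of the 47 genes, 8.51%, against 13% of all genes. They were SF3A2 (adjusted permutation p = 0.00148, phase 6 h), LSM11 (0.0182, 2 h), SNRPA1, the U2-A' gene (0.0232, 0 h), and PRPF3 of the tri-snRNP (0.0497, 8 h). Without 16 h and 18 h it called 9 genes, 19.1%, against 14.7% of all genes. The 9 were these 4 and SNRPD1, SNRPF, SF3B2, LSM6 and PRPF38A, all 5 with a phase of 6 h, so the count depended on these 2 libraries.

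A 24 h cosine with a linear trend was then fitted to log2(FPKM + 1) at the 22 time points with limma, which gives an amplitude (the distance from the mean to the maximum) with its standard error. The p-values rest on scatter about the fitted curve in 1 series, not on replicates. The fit called 9 of the 47 genes, 19.1%, against 14.2% of all genes, and the 9 amplitudes were between 0.10 and 0.23. The median amplitude over all 47 was 0.12, against 0.10 for all genes.

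Of the 9, SNRPA1 had the smallest p. Its level was 86.3 FPKM at 0 h, 53.7 FPKM at 14 h, 78.1 FPKM at 20 h and 58.7 FPKM at 32 h, and its amplitude was 0.18 ± 0.03 (SE) with a maximum at 23.6 h (limma adjusted p = 0.00854). SNRPA1 thus had a high near the start of each 24 h and a low later, at 14 h on the first day and 32 h on the second. The second swing was smaller, with values between 58.7 and 78.0 FPKM from 24 h on. Its low lay at 32 h, which the study marks by eye as a mild STRIPE, and values from 34 h on were 63.9 to 71.6 FPKM. LSM2 had its fitted maximum at 13.5 h, with an amplitude of 0.23 ± 0.04 (SE, limma adjusted p = 0.0107). PRPF8 had its fitted maximum at 15.0 h, with 0.21 ± 0.05 (SE, limma adjusted p = 0.0191). The highest measured values were at 10 h for LSM2 and at 12 h for PRPF8. Both were high from 8 h to 14 h on the first day, LSM2 at 221 to 242 FPKM and PRPF8 at 146 to 163 FPKM, while on the second day their values at the matched hours were 159 to 172 FPKM and 92.9 to 121 FPKM.

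A second set of called genes had fitted maxima between 5.3 h and 9.2 h. PRPF3 was highest at 6 h (42.7 FPKM) and again high at 28 h (40.1 FPKM), with an amplitude of 0.14 ± 0.03 (SE) and a maximum at 6.6 h (limma adjusted p = 0.0215). SF3A2 (maximum at 5.3 h), PRPF38A (5.4 h), SNRPD3 (6.0 h) and PRPF38B (9.2 h) had amplitudes of 0.14 to 0.15 with limma adjusted p between 0.0267 and 0.0379. SF3A2 had its highest values at 6 h (95.0 FPKM) and at 28 h and 30 h (91.6 and 98.3 FPKM). SF3A2, PRPF38A and SNRPD3 were no longer called when 6 h and 32 h were left out as well, an alternative chosen after seeing the data. PRPF19, at 0.10 ± 0.03 (SE) and 13.9 h, passed narrowly (limma adjusted p = 0.0486). Over all 47 genes, called or not, 20 had a fitted maximum between 4 h and 8 h, against 25.1% of all genes.

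The number called depended on single libraries. It was 5 without 0 h or without 28 h and 18 without 22 h, and only SNRPA1, LSM2, PRPF3 and PRPF8 were called whichever single time point was left out. With all 24 time points it was 3 (SF3A2, SNRPA1 and PRPF8).

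To compare the assumed cycles, the second 24 h was set against the first at 10 matched hours, leaving out 16 h, 18 h and their partners, in limma with the hour as a block. None of the 47 genes was higher on the second day at a limma adjusted p of at most 0.05, against 12.6% of all genes, and 1, PRPF40B, was higher at an unadjusted p under 0.05. In contrast, 5 of the 47 fell, 10.6%, against 6.80% of all genes. Without a threshold, 34 of the 47 were below 0, against 47.2% of all genes, and the median difference was -0.06 on log2(FPKM + 1), against 0.01 for all genes.

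The 5 genes that fell were PRPF6, PRPF19, LSM2, PRPF8 and SF3B4. PRPF6, a U5 protein that bridges the parts of the tri-snRNP, had 34.5, 40.8 and 45.7 FPKM as its lowest, median and highest value on the first day and 30.2, 33.6 and 37.3 FPKM on the second. Its difference was -0.25 ± 0.05 (SE, limma adjusted p = 0.00365), and it was lower on the second day at 10 of 10 hours. PRPF8, its partner in U5, had 96.3, 134 and 163 FPKM and then 92.9, 108 and 121 FPKM, a difference of -0.29 ± 0.07 (SE, limma adjusted p = 0.0153), and was lower at 9 of 10 hours. The days overlapped in range for both genes.

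PRPF19 had 132, 147 and 165 FPKM on the first day and 111, 130.0 and 142 FPKM on the second, a difference of -0.22 ± 0.05 (SE, limma adjusted p = 0.0134), and was lower at 9 of 10 hours. LSM2 had 134, 194 and 242 FPKM and then 135, 161 and 172 FPKM, a difference of -0.30 ± 0.07 (SE, limma adjusted p = 0.0153), lower at 8 of 10 hours. SF3B4, an RNA-binding subunit of SF3B, had 56.5, 64.2 and 75.4 FPKM and then 39.4, 53.3 and 64.8 FPKM, a difference of -0.27 ± 0.08 (SE, limma adjusted p = 0.0253), lower at 10 of 10 hours. LSM2, PRPF8 and PRPF19 were thus called in both this comparison and the cosine fit, which use the same libraries.

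The other 42 genes had differences between -0.23 and 0.22 and did not pass. SNRPE, at -0.21 ± 0.07 (SE), was the nearest to passing (limma adjusted p = 0.0528), and SNRPB was at -0.23 ± 0.10 (SE). PRPF6, PRPF19, LSM2 and PRPF8 were called whichever pair of matched hours was left out, and SF3B4 in 7 of 10 such fits. LSM2 was no longer called without 6 h, 32 h and their partners, an alternative chosen after seeing the data, while the other 4 were. With all 24 time points 3 of the 47 fell (SF3B4, PRPF6 and PRPF8), so that LSM2 and PRPF19 did not pass. When each library was brought to a common median, 7 of the 47 fell, these 5 among them, while the calls of all genes changed from 1547 higher and 833 lower to 1276 higher and 1284 lower.

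**Figure D5:**
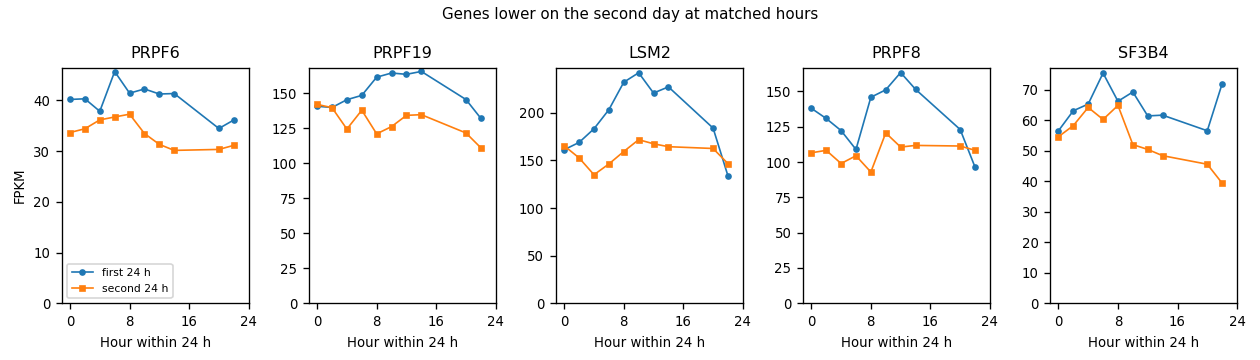
FPKM of the 5 genes that fell, at 10 matched hours of the first (circles) and second (squares) 24 h, on axes from 0; 16 h and 18 h are left out, so a straight line joins 14 h and 20 h. PRPF6 and SF3B4 are lower on the second day at every hour shown. The gap in LSM2 and PRPF8 is widest at 8 h, whose partner, 32 h, the study marks by eye as a mild STRIPE.

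How the genes moved with each other was described by Pearson's r of log2(FPKM + 1) over the 22 time points, which share libraries, so no p is given. The median r over all pairs of the 47 genes was 0.17, against 0.01 for all genes, and within the Sm core it was also 0.17. The closest pairs lay both within the Sm ring and between particles. SNRPD2 and LSM7 had an r of 0.92, SNRPB and LSM7 of 0.90, SNRPD2 and SNRPB of 0.86, SNRPD1 and SNRPF of 0.92 and SNRPD3 and SF3A3 of 0.92. The lowest r, -0.77, was between SNRPD3 and SF3B1, and between SNRPB and SF3A3 it was -0.55. The 22 time points include 6 h and 32 h. SNRPB, SNRPD2 and LSM7 were lowest at 32 h (109, 391 and 82.8 FPKM), where SNRPD3 and SF3A3 were highest (170 and 309 FPKM). At 22 h, 28 h and 30 h LSM7 was at 156, 174 and 186 FPKM, against 132 FPKM at 24 h. SNRPD2 was at 537, 580 and 627 FPKM, against 506 FPKM, and SF3A3 at 238, 225 and 238 FPKM, against 166 FPKM. The part that these libraries, 6 h and 32 h have in these r values was not tested.

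The sequences before the start sites of 5 of these genes are shown, chosen by r over the 22 time points, 6 h and 32 h included. SNRPD2, SNRPB and LSM7 had high r with each other, as had SNRPD3 with SF3A3, and r between these sets was negative. Each line gives the 250 bases upstream of the RefSeq start site in GRCh38.p14, 5′ to 3′ on the strand of the gene. Capitals mark matches, on either strand, to the ETS core CCGGAAG, the NRF1 site GCATGCGC, the CCAAT box CCAAT or the GC box GGGCGG; the 3 NRF1 matches of LSM7 overlap in part.
SNRPD2, chr19:45692317-45692566, minus strand: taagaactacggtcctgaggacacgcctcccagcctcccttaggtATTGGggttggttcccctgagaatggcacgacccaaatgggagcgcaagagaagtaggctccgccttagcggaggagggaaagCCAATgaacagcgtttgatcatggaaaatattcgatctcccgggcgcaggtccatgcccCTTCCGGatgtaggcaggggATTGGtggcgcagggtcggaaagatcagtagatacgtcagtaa
SNRPB, chr20:2470790-2471039, minus strand: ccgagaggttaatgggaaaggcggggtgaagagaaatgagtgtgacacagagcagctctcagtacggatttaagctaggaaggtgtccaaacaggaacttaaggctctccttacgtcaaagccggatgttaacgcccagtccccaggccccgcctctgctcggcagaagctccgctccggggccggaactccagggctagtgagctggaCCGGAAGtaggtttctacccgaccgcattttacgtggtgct
LSM7, chr19:2328587-2328836, minus strand: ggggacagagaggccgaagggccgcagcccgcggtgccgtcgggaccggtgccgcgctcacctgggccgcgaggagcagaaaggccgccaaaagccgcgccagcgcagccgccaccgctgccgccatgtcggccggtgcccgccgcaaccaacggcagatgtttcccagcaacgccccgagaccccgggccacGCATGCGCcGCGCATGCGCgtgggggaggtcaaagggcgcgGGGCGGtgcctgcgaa
SNRPD3, chr22:24555400-24555649, plus strand: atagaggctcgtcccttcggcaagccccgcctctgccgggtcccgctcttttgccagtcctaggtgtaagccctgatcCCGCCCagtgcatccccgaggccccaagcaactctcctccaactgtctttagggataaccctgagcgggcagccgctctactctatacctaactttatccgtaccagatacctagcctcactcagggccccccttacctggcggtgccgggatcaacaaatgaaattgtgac
SF3A3, chr1:37990023-37990272, minus strand: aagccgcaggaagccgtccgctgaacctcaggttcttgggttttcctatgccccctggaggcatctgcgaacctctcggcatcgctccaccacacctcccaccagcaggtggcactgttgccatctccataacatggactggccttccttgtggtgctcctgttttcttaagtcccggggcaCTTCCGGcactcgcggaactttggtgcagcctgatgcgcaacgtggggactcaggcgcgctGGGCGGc

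No motif searched was common to the first 3 windows and missing from the other 2. The ETS core occurred in SNRPD2, SNRPB and SF3A3 but not in LSM7 or SNRPD3, and the GC box in LSM7, SNRPD3 and SF3A3. RefSeq windows of this kind were matched for 38 of the 47 genes. The ETS core was in 16 of the 38 (42.1%), against 8.82% of 27305 promoters and 18.3% of the 8626 promoters of genes in the table. CCAAT was in 42.1%, against 33.0% and 36.2%, and the GC box in 55.3%, against 42.3% and 69.2%. The E-box CACGTG was in 1 of the 38 (SF3B1), the TATA box TATAAA in 1 (SNRPC), the NRF1 site in 2 (LSM7 and SF3A2) and the E2F site TTTCGCGC in none. A match is a run of letters and was not tested as a binding site, and the median GC content of these windows was 59.8% for the 38 genes, against 65.2% for the genes of the table.

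Other proteins of the same pathway were examined in lists that hold none of the 47 genes. Of all genes, 13% were ordered by JTK, 14.2% were called by the cosine fit and 6.80% fell on the second day. At 16 h and 18 h, 8.95% of all genes were at least 2-fold above the line and 7.11% at least 2-fold below. The lists are short, and their counts were not tested against these shares. Of 24 other snRNP proteins, 23 were in the table, of which 6 were ordered by JTK, 4 were called by the cosine fit, 1 fell on the second day and 5 were at least 2-fold above the line at 16 h and 18 h, with none below. SNRNP35, of the minor U11/U12 particle, had the smallest cosine p of this list, with an amplitude of 0.21 ± 0.05 (SE) and a maximum at 6.2 h (limma adjusted p = 0.0162). SNRNP25 of the same particle (0.25 ± 0.06, SE, maximum at 7.6 h, limma adjusted p = 0.0230) and SNRNP40 of U5 (0.11 ± 0.03, SE, at 14.6 h, limma adjusted p = 0.0253) followed.

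Of 16 genes for snRNP assembly, 1 was ordered by JTK, 1 was called by the cosine fit, 2 fell on the second day and 1 was at least 2-fold below the line. The 2 that fell were GEMIN8 (-0.31 ± 0.05, SE, limma adjusted p = 0.00285) of the SMN complex and COIL (-0.17 ± 0.05, SE, limma adjusted p = 0.0214), the coilin of Cajal bodies, and the gene called by the cosine fit was PRMT5, which methylates Sm proteins (0.14 ± 0.04, SE, limma adjusted p = 0.0309). Of 20 genes for the PRPF19 complex and the catalytic steps, none was ordered by JTK, 1 was called by the cosine fit, 3 fell on the second day and 5 were at least 2-fold above the line. RBM22 (-0.22 ± 0.05, SE, limma adjusted p = 0.0113), CWC15 (-0.18 ± 0.05, SE, limma adjusted p = 0.0255) and CDC5L (-0.15 ± 0.04, SE, limma adjusted p = 0.0320) were the 3 that fell.

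The 8 partners of the LSM1 ring in mRNA decay included 3 ordered by JTK, 2 called by the cosine fit (DCP2, limma adjusted p = 0.0299, and DDX6, 0.0483) and 4 at least 2-fold above the line, of which XRN1, the exonuclease, was furthest at 1.8. The 8 genes for histone end processing, the task of the U7 particle, had none ordered by JTK, 1 called by the cosine fit (CASP8AP2, limma adjusted p = 0.0237) and none at least 2-fold off. No gene of these 5 lists was higher on the second day, against 12.6% of all genes. As cell-cycle references, the S phase genes CCNE2 and MCM5 were called by JTK and by the cosine fit (limma adjusted p = 0.0139 and 0.00454), and CCNB1 of G2/M by neither.

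Some of the values may include reads of other genes. In GENCODE 29, an exon of another gene overlapped an exon of 4 of the 47 genes on the same strand (SNRPB, SNRPD3, LSMEM1 and PRPF18) and of 17 on the opposite strand, among them LSM7, SNRPD2, SF3A1 and SF3A2. Pseudogenes named after 13 of the genes numbered 67, with 20 for SNRPG and 18 for SNRPC, and none of them was in the table. How reads in such places were assigned is not given in the sources used here.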

How the data were processed

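RNA from 24 K562 samples, 1 per time point, was assigned to hours from the sample labels, and 0 columns of sample values were not used. The authors deposited FPKM values per gene; per the labels, STAR, Cufflinks, Cuffnorm and GRCh37 were named in the submitters' processing notes, with no versions. A second deposited table holds a score, which equalled Z-scored and quantile-normalized FPKM (largest difference 0). Every gene listed reached 1 FPKM in at least 12 time points. Depth is unknown, so no counting error can be given.

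Gene type, transcript length and GC content came from GENCODE 29, in which 12180 of the 12285 identifiers were found, and promoters from RefSeq (GRCh38.p14). Coordinates are given only for the latter. Coordinates of different builds were not compared, but the FPKM values, for which the notes name GRCh37, were joined to GENCODE 29 by gene identifier. Genes averaging 1 FPKM or more were tested on log2(FPKM + 1), where the pseudocount of 1 understates changes of low genes. The JTK statistic (12 phases) took a permutation p from 100000 orderings, the smallest it can give being 1e-05. This statistic, limma 3.58.1 in R 4.3.3 (moderated F test of cosine and sine, and a paired day difference) and distances from flanking time points were computed with Python 3.11.15, numpy 2.4.6, scipy 1.17.1 and statsmodels 0.14.6, after the code had been tested on simulated data. P-values were Benjamini–Hochberg adjusted over all genes tested. Both p-values treat time points as independent of each other. Genes were named by a rule: all members by role, the Sm and LSM rings in full, up to 8 called members per comparison or the 5 furthest each way, and up to 3 per other list. Members and lists were chosen with earlier results of these data known. The values of 1 member and 1 marker are not reported here, though both stay in the counts. Alternatives were other time points, filters, pseudocounts, scalings, periods and corrections.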

Additional observations from a re-analysis of the deposited data

How the results depend on the processing

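No value past its threshold changed sign under the alternatives tried. Values short of it did, among them the distance of SNRPF, from 0.46 to -0.12 with the GC trend removed, and the day difference of SNRPB, from -0.23 to 0.04 with all 24 time points. The cause of these shifts and those below was not tested. For JTK the count of called genes was 4; it was 9 without 16 h and 18 h, 14 with both replaced by PCHIP interpolation and 0 with a 28 h period. For the cosine fit it was 9, against 3 with all 24 time points, 3 with a 20 h period and 2 with a 28 h period, and 5 to 18 with each time point left out in turn (lowest without 0 h or 28 h, highest without 22 h). Genes lower on the second day numbered 5, against 3 with all 24 time points and 4 to 7 with each pair of hours left out. Genes higher numbered 0, and 0 to 1 with a pair left out, the 1 without 22 h and 46 h. Leaving out 6 h and 32 h as well, an alternative chosen after seeing the data, gave 6 genes by the cosine fit and at most 1.5-fold changes in the other counts. Genes at least 2-fold above their flanks at 16 h and 18 h numbered 9, against 5 with upper-quartile scaling and 5 with the GC trend removed. Those below numbered 3, against 6 with upper-quartile scaling and 8 at 1.5-fold. The median distance was 0.26, against 0.140 with a common median, 0.0280 with upper-quartile scaling, 0.0704 with the GC trend removed and 0.16 with 12 h and 22 h as flanks. The other alternatives left these summary values within 1.5 times, or within the scatter of reference pairs. Over all genes, JTK called 1599, against 287 and 445 with 20 h and 28 h periods, and the cosine fit 1736, against 450 and 596, and 991 to 2061 with a time point left out (991 without 12 h, 1013 without 14 h and 1038 without 10 h). Genes lower on the second day numbered 833, against 1284 with a common median and 452 to 1020 with a pair of hours left out (452, 497, 485 and 553 without 10 h, 12 h, 14 h and 4 h and their partners). At 16 h and 18 h, all genes at least 2-fold above and below numbered 1097 and 871, against 579 and 1299 with upper-quartile scaling, 653 and 480 with the GC trend removed, 1344 and 1308 with a pseudocount of 0.1, 794 and 549 with a minimum of 10 FPKM and 794 and 1100 with a common median. Results of single genes kept their side of the threshold, or their value, in 2416 of the planned refits, were no longer called in 66, became called in 55 and moved in 126. By replicate number, no paired analysis was possible because each time point is 1 library with 1 number, so no 2 groups share 2 of them. The pairing in the day comparison is by matched hour and is its main design. Without replicates or depths, the precision of a single FPKM value is not known.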
